A study of Mus musculus with 14 samples.

Results

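A mouse mammary tumor line was compared with 3 lines named for other organs, liver, kidney and testis, on two-colour spotted arrays. The comparison used 5 of the 14 arrays of the series, chosen by their titles: 2 mammary tumor arrays, and 1 each for liver, kidney and testis. The 7 other lines stayed out of the difference: 2 of them, fibroblast and myeloma, had 2 arrays and entered the estimate of spread, and all 7 served for ranks over the lines and for the choice of features with a value in every line. On every array the line's total RNA was labelled with Cy5 and set against a commercial RNA pool (Stratagene mouse reference), labelled with Cy3, with no exchange of dyes. For the strain, the name and any treatment of the lines the labels say nothing, and the short annotation calls the samples primary tissue where the titles call them cell lines. On mammary tumor array 1 the label of the pool has an added "MRR", so a different pool cannot be told apart from a different spelling. The labels do not say that the 2 mammary tumor arrays came from separate cultures, so the p-values cover only array-to-array spread, possibly a technical one.

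Mammary tumors arise from the milk-producing epithelium, whose luminal cells carry the keratins Krt8, Krt18 and Krt19 and the adhesion molecules Epcam and Cdh1, while its basal cells border on a matrix of collagens and fibulins. Hormones, growth factors, Wnt ligands and chemokines pass between epithelium and stroma, and lines in culture can lose or gain parts of these programmes. Among the genes followed here, Cxcl12 encodes a chemokine made mainly by stromal cells that binds the receptors Cxcr4 and Ackr3. Ccn5 encodes a secreted matricellular protein of the CCN family, and Igfbp4 encodes a secreted protein that binds insulin-like growth factors.

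Values are log2 ratios of a line over the pool after each array was centred on its own median, so 0 is the median spot of that array and a ratio near 0 does not tell whether a gene was expressed. A difference is the mean of the mammary tumor arrays minus the mean of the 3 lines, or minus 1 line, given with the standard error of the fit. A probe was called when its Benjamini-Hochberg adjusted p in limma was under 0.05 and both mammary tumor arrays lay on the same side. Base 2 was assumed for the deposited logs, and every fold rests on it. Over 7408 features the 2 mammary tumor arrays correlated at r = 0.668, and the SD of their difference was 0.551. Against the other 3 lines, r ran from 0.217 to 0.354 and the SD of the difference from 0.852 to 1.05. These correlations are across genes, which are not independent, on arrays that share the pool.

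The promoters of Cxcl12, Sfrp2 and Crip1 are shown as examples picked by hand from the called genes with an entry in the RefSeq table. That of Igfbp4 is shown because it was followed by name. Each is the 250 bases before the annotated start on the plus strand of GRCm38.p6, 5′ to 3′, with matches to the searched motifs in capitals.
Cxcl12, chr6:117168285-117168534: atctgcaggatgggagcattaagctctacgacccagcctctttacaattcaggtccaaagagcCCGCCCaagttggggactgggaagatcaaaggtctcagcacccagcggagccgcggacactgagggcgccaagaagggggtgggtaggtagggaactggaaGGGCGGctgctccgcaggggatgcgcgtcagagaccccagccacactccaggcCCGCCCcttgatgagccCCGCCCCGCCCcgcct
Sfrp2, chr3:83766071-83766320: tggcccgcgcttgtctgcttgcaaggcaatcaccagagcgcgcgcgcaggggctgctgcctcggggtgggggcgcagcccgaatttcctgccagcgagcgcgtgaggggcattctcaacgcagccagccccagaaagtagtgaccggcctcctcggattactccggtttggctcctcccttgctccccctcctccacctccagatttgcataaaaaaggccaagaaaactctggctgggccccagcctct
Igfbp4, chr11:99040994-99041243: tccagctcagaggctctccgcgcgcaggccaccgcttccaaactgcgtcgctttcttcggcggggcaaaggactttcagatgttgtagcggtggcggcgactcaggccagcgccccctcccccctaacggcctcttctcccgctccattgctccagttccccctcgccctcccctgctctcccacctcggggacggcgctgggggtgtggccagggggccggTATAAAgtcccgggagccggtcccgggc
Crip1, chr12:113151762-113152011: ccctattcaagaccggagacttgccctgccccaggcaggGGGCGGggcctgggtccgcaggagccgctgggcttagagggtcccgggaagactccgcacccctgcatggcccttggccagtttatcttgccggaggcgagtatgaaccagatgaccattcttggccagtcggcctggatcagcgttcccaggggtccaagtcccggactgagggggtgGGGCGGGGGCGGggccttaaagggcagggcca
The motifs were the GC box GGGCGG, the TATA box TATAAA, the AP-1 site TGANTCA, the cAMP response element TGACGTCA and the palindromic oestrogen response element, each on both strands. The Cxcl12 window held 5 GC boxes, a pair of which overlap, and the Crip1 window held 3, of which a pair lie side by side. The Igfbp4 window held 1 TATA box, and no searched motif was found in the Sfrp2 window. Of 32851 RefSeq windows of this length, 32.7% held a GC box, 12.4% a TATA box, 6.75% an AP-1 site, 1.55% a cAMP response element and 0.0639% an oestrogen response element. The matches describe letters only.

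Cxcl12 and Ccn5 were higher in the mammary tumor line than in the mean of the 3 lines, by about 31.1-fold and 34.8-fold. The Cxcl12 log2 ratio was 2.04 and 2.97 on the mammary tumor arrays, -4.62 in liver, -4.45 in kidney and 1.72 in testis. The mammary tumor arrays were thus high, testis lay just under them, and liver and kidney were far below. The Cxcl12 difference was 4.96 ± 0.57 (SE; adjusted p = 0.0334) from the mean of the 3 lines. It was 7.13 from liver (adjusted p = 0.0367) and 6.96 from kidney (adjusted p = 0.0341), both called, but only 0.79 from testis (adjusted p = 0.893). The Ccn5 log2 ratio was 2.18 and 2.89 on the mammary tumor arrays, -1.69 in liver, -2.91 in kidney and -3.17 in testis, with no overlap. The Ccn5 difference was 5.12 ± 0.54 (SE; adjusted p = 0.0334), and of the single lines only kidney was past the threshold (adjusted p = 0.0441, against 0.148 for liver and 0.0601 for testis).

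Igfbp4 was not called against the mean of the 3 lines. Its log2 ratio was 1.22 and 2.13 on the mammary tumor arrays, -1.05 in liver, -3.50 in kidney and 1.44 in testis, so that testis lay between the mammary tumor arrays. The Igfbp4 difference was 2.71 ± 0.51 (SE; adjusted p = 0.0999). Against kidney alone it was 5.18 ± 0.68 (SE; adjusted p = 0.0441), which was called, and against testis it was 0.23 (adjusted p = 0.988). Over all 11 lines, the mammary tumor mean was the highest value for Cxcl12 and Ccn5, and also for Igfbp4, there only just above testis. The nearest line to it was testis for Cxcl12, and the myoblast line, at 0.90, for Ccn5. The spread between the 2 mammary tumor arrays covered the gap to testis for Igfbp4.

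**Figure D1:**
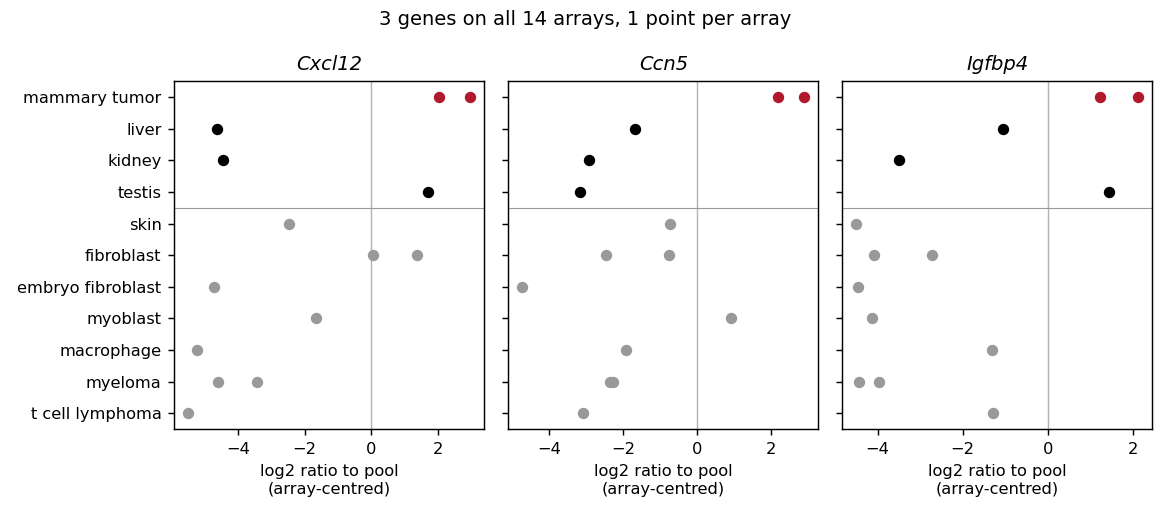
Log2 ratio to the pool, array-centred, of Cxcl12, Ccn5 and Igfbp4 on all 14 arrays, 1 point per array. Red points are the 2 mammary tumor arrays, black points the 3 lines compared and grey points the lines left out of the comparison. The testis point lies close to the red points for Cxcl12 and Igfbp4, and at -3.17 for Ccn5.

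Cxcl12's receptors and the relatives of the other 2 genes did not pass the test. Cxcr4 read -0.71 and -3.16 on the mammary tumor arrays, which differed from each other, and between -3.85 and -3.30 in the 3 lines. Ackr3, a scavenging receptor for Cxcl12, read -0.10 and 0.39, against -0.18, -1.30 and -2.06 in liver, kidney and testis. Of the 4 other CCN genes measured, Ccn2, a matrix-inducing member, read -0.74 and -0.62 on the mammary tumor arrays and between 0.46 and 0.86 in the 3 lines (difference -1.32 ± 0.44 SE; adjusted p = 0.291). Of the IGF binding proteins, Igfbp5 read 0.41 and 1.33 on the mammary tumor arrays and at most 0.25 in the 3 lines, while Igfbp6 read -2.74 and -3.41 and at least -2.71 in them. None of the 27 probes of the IGF axis was called in limma in either direction against the mean of the 3 lines. At an unadjusted p under 0.05 were 5 of them, where 941 of 7423 features were. With the 5 arrays fitted by line 2 were called higher and 2 lower, beside 3.25% and 2.9% of all features. On both mammary tumor arrays 4 (14.8%) lay above and 4 (14.8%) below all 3 lines, near the 13.2% and 13.9% of all features that did.

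Across the array, 31 of 7423 features tested were called against the mean of the 3 lines (0.418%). Of these, 15 were higher in the mammary tumor line (0.202%) and 16 lower (0.216%), which stand for 12 and 15 named genes and 3 probes with no gene name. On 30 of the 31 both mammary tumor arrays lay beyond all 3 lines; Sspn overlapped with kidney. Without that call rule, 978 features (13.2%) lay above all 3 lines and 1035 (13.9%) below them. The smallest difference called was 2.17 in size. At an unadjusted p under 0.05 in limma were 941 of the 7423 features. The call count rested on single arrays: by limma it was 0 without mammary tumor array 1 or 2 (400 and 374 features at an unadjusted p under 0.05), without kidney (658), without myeloma array 1 or 2 (863 and 860), and with runs of image numbers as a random block (681). With only the 5 arrays in the fit, 456 features were called by line (6.14%), and 8 as 2 groups (0.108%), 7 of them higher (0.0943%) and 1 lower (0.0135%). The image numbers in the labels put the mammary tumor arrays in runs that hold none of the 3 lines, so run and line cannot be told apart.

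**Figure D2:**
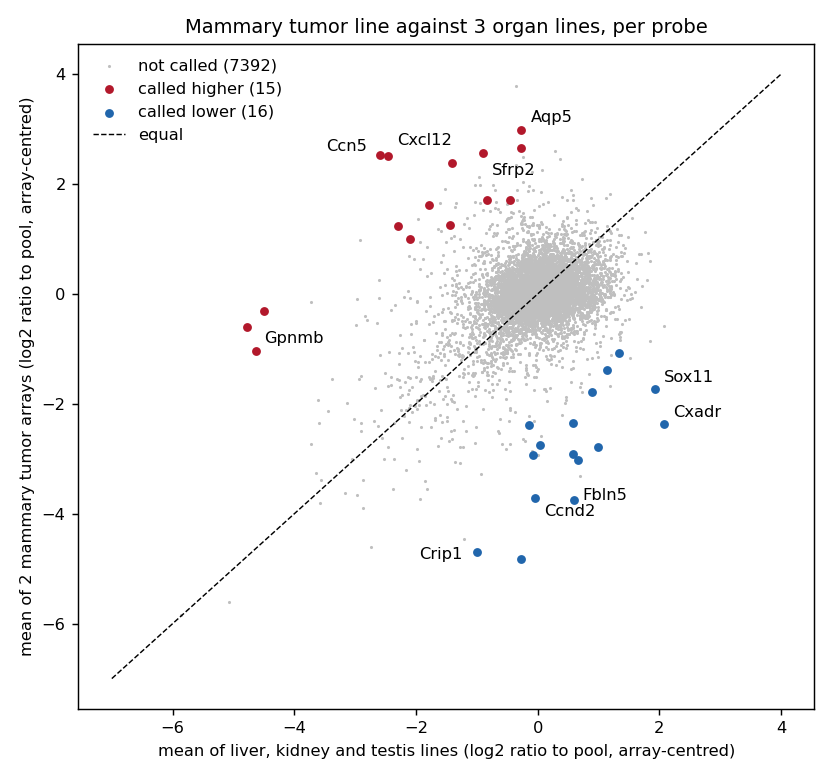
Mean log2 ratio to the pool on the 2 mammary tumor arrays (vertical axis) against the mean of the liver, kidney and testis lines (horizontal axis), 1 point per feature, array-centred. The 15 features called higher are red, the 16 called lower blue and those not called grey; the dashed line marks equal values.

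The genes called higher after Ccn5 and Cxcl12 included matrix, Wnt, membrane and transcription factor genes. Col6a3, a chain of the beaded-filament collagen VI, had 3 probes. The probe with the largest difference read 2.18 and 2.57 on the mammary tumor arrays, -1.11 in liver, -1.97 in kidney and -1.14 in testis, a gap with no overlap. Its difference was 3.78 ± 0.44 (SE; adjusted p = 0.0334), the second probe was also called at 2.54, and the third, at 1.56, was not (adjusted p = 0.218). Sfrp2, a secreted Wnt modulator, read 2.54 and 2.60 on the mammary tumor arrays, -1.19 in liver, -2.09 in kidney and 0.58 in testis. The 2 mammary tumor arrays were close together and all 3 lines lower. The Sfrp2 difference was 3.46 ± 0.30 (SE; adjusted p = 0.0249), and the mammary tumor mean was the highest of the 11 lines.

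Gpnmb, a membrane glycoprotein best known from macrophages and pigment cells, was higher by 3.60 ± 0.43 (SE; adjusted p = 0.0334) but lay below the pool in all 5 arrays. It read -1.43 and -0.63 on the mammary tumor arrays, -4.35 in liver, -5.01 in kidney and -4.55 in testis, and the macrophage line was at 2.73. Steap3, an iron reductase, read 0.89 and 1.59 on the mammary tumor arrays and -1.29, -3.37 and -2.24 in liver, kidney and testis (difference 3.54 ± 0.40 SE; adjusted p = 0.0334). Aqp5, a water channel of secretory glands, read 2.85 and 3.14 on the mammary tumor arrays, 1.41 in liver, -0.74 in kidney and -1.47 in testis (difference 3.26 ± 0.38 SE; adjusted p = 0.0462). Liver was thus the nearest line for Aqp5. Cbr2, a carbonyl reductase, read 2.48 and 2.82 on the mammary tumor arrays and was nearest in kidney, at 1.56, with liver at -1.15 and testis at -1.26.

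Of the transcription factors, Sox9, which acts in mammary progenitors and in Sertoli cells of the testis, read 1.23 and 1.30 on the mammary tumor arrays. Liver was at -0.93, kidney at -1.45 and testis at -1.95, and the difference was 2.71 ± 0.32 (SE; adjusted p = 0.0334). Irx2, a homeobox factor, read 1.60 and 1.65 against -1.15, -2.27 and -1.96 in liver, kidney and testis (difference 3.42 ± 0.46 SE; adjusted p = 0.0462), and the embryo fibroblast line was higher still, at 2.33. Xlr was called on 1 of 3 probes (difference 3.10); the other probes gave 0.37 and 0.43, and the gene belongs to a family of near-identical copies, so its call is uncertain. Sspn, sarcospan of the dystrophin complex, read 1.63 and 1.81 on the mammary tumor arrays and 1.71 in kidney.

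The genes called lower held transcription factors, cell surface receptors, matrix proteins and a cyclin. Ccnd2, cyclin D2, which starts the cell cycle with Cdk4 and Cdk6, was the lowest of all 11 lines in the mammary tumor line. It read -3.74 and -3.67 on the mammary tumor arrays, -0.55 in liver, -0.07 in kidney and 0.46 in testis, with no overlap. The Ccnd2 difference was -3.65 ± 0.29 (SE; adjusted p = 0.0249), and it passed against kidney (adjusted p = 0.0341) and testis (adjusted p = 0.0366) but not liver (adjusted p = 0.0644). Crip1, a small LIM protein, read -4.44 and -4.95 on the mammary tumor arrays, 1.28 in liver, -1.0 in kidney and -3.29 in testis. The Crip1 difference was -3.69 ± 0.38 (SE; adjusted p = 0.0334); liver was far above the mammary tumor arrays and testis close to them (adjusted p = 0.452).

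Fbln5, an elastic fibre protein, read -3.90 and -3.60 on the mammary tumor arrays, -1.82 in liver, 2.05 in kidney and 1.55 in testis (difference -4.34 ± 0.60 SE; adjusted p = 0.0473). Loxl2, a collagen cross-linking oxidase, read -2.44 and -3.61, against -0.40, 1.82 and 0.55 (difference -3.68 ± 0.45 SE; adjusted p = 0.0335). Both matrix genes were low on both mammary tumor arrays with kidney as the highest of the 3 lines. Cxadr, a tight junction protein and virus receptor, read -2.46 and -2.28 on the mammary tumor arrays, 1.33 in liver, 1.40 in kidney and 3.49 in testis (difference -4.45 ± 0.52 SE; adjusted p = 0.0462). Nectin2, another adhesion receptor, read -1.82 and -1.75, against 0.63, 0.27 and 1.81 (difference -2.69 ± 0.32 SE; adjusted p = 0.0334). Ntrk3, the receptor for neurotrophin-3, was called lower on 1 of 2 probes, at -4.54, while the other probe gave 0.63 (adjusted p = 0.499), so the probes disagree.

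Gata6, a factor of endoderm and gonad, read -2.73 and -1.96 on the mammary tumor arrays, -0.89 in liver, 0.61 in kidney and 2.01 in testis (difference -2.92 ± 0.35 SE; adjusted p = 0.0334). Sox11, a factor of embryonic progenitors, read -1.27 and -2.18, against 0.71, 2.63 and 2.44 (difference -3.66 ± 0.44 SE; adjusted p = 0.0334). Wnt10a, a Wnt ligand, read -2.95 and -2.93 on the mammary tumor arrays, 1.80 in liver, 0.49 in kidney and -2.52 in testis. For Wnt10a liver and kidney were high and testis close to the mammary tumor arrays. The other genes called lower were Dpysl3 (difference -3.50), Ptgis, prostacyclin synthase (-2.80), Gadd45a (-2.52), Mthfd2, a mitochondrial folate enzyme (-2.42), and Man1a (-2.24).

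**Figure D3:**
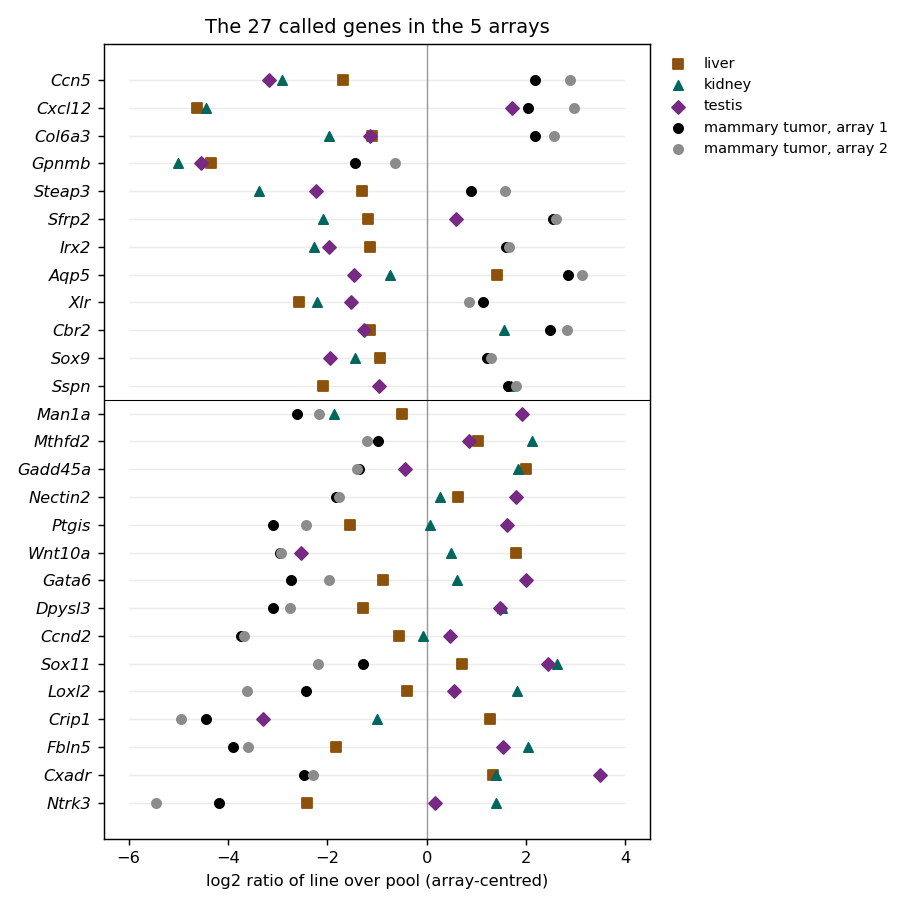
Log2 ratio to the pool, array-centred, of the 27 called genes in the 5 arrays, ordered by the difference of the mammary tumor mean from the mean of the 3 lines. Black and grey circles are mammary tumor arrays 1 and 2; the line across separates genes called higher (above it) from genes called lower. For a gene with several probes, the called probe with the largest difference is drawn. Only for Sspn does a line fall between the circles.

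Each line was also compared alone. These 3 comparisons share the mammary tumor arrays, so their lists are given side by side. Against liver, 9 features were called (0.121%), 5 higher (0.0674%) and 4 lower (0.0539%). Reck, a membrane inhibitor of metalloproteinases, read -0.18 and 0.68 on the mammary tumor arrays and -6.36 in liver (difference 6.60 ± 0.68 SE; adjusted p = 0.0367). Col12a1, a fibril-associated collagen, differed by 3.94 (adjusted p = 0.0441), and Cxcl12 and Sspn were also higher. Krt8, a luminal keratin, read -3.43 and -2.67 on the mammary tumor arrays and 2.54 in liver (difference -5.59 ± 0.49 SE; adjusted p = 0.0277). Itgb7, a lymphocyte integrin subunit, was lower by 4.46 in size (adjusted p = 0.0367), beside Crip1 and Wnt10a.

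Against kidney, 36 features were called (0.485%), 16 higher (0.216%) and 20 lower (0.269%). Cxcl12, Ccn5 and Igfbp4 were among those higher, with Il18rap, a receptor subunit for interleukin-18, which read 0.81 and 1.09 on the mammary tumor arrays and -3.98 in kidney (difference 4.93 ± 0.54 SE; adjusted p = 0.0341). Hebp2, a haem-binding protein, read -2.14 and -1.73 on the mammary tumor arrays and 2.96 in kidney (difference -4.90 ± 0.53 SE; adjusted p = 0.0341), and Ntrk3, Fbln5 and Loxl2 were lower too. With values not centred, 43 features were called higher and 14 lower, so the split by direction moves with the centring; the kidney array's median was -0.406 before centring. With arrays scaled to the same spread, limma called 0 features against kidney (1133 at an unadjusted p under 0.05).

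Against testis, 9 features were called (0.121%), 2 higher (0.0269%) and 7 lower (0.0943%). Fhl2, a LIM protein that binds transcription factors, read 2.01 and 1.98 on the mammary tumor arrays and -3.0 in testis (difference 4.99 ± 0.56 SE; adjusted p = 0.0464). Dcn, the matrix proteoglycan decorin, read -5.02 and -4.18 on the mammary tumor arrays and 1.11 in testis (difference -5.70 ± 0.58 SE; adjusted p = 0.0366), with liver at -4.05 and kidney at -5.28. Cd151, a tetraspanin, read -2.35 and -2.65 on the mammary tumor arrays and 2.28 in testis (difference -4.78 ± 0.50 SE; adjusted p = 0.0366). Dpysl3 and Ptgis were lower as well.

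Set against its label, the mammary tumor line did not stand out by markers of luminal mammary epithelium or milk. Epcam read -2.33 and -1.44 and Krt19 -1.17 and -1.29 on the mammary tumor arrays, while the liver array was at 2.80 for Krt19. Krt18 read 0.77 and -0.29 and Cdh1 0.33 and -0.63, on either side of 0. The milk proteins did not pass the test either: Csn2 read 0.08 and 0.30, and Csn3 -1.78 and -0.77. The mesenchymal filament Vim read 0.35 and 1.09, against -0.40, -0.82 and -1.22 in liver, kidney and testis (adjusted p = 0.188). The receptors Esr1 and Pgr read between -0.64 and 0.12 on the mammary tumor arrays on every probe. Over 31 probes of luminal epithelium and junctions, 0 were called against the mean of the 3 lines in limma (6 at an unadjusted p under 0.05, and 2 called in each direction with the 5 arrays by line), 4 (12.9%) lay above all 3 lines and 5 (16.1%) below, near the 13.2% and 13.9% of all features, and the median difference was -0.18, or 0.07 with values not centred. Over 21 probes of milk and secretory genes, 0 were called in limma (2 at an unadjusted p under 0.05, and 1 called higher with the 5 arrays by line), 3 (14.3%) lay above and 1 (4.76%) below. Beside these lists and the basal one, 941 of all 7423 features were at an unadjusted p under 0.05. By line, 3.25% of all features were called higher and 2.9% lower. Of 16 basal and myoepithelial probes, 0 were called in limma (4 at an unadjusted p under 0.05, and 2 called higher and 1 lower with the 5 arrays by line), while 4 (25%) lay above all 3 lines and 2 (12.5%) below. Above were Trp63, Col17a1, a probe of Lama3 and Vim, which is given above as a mesenchymal filament and so is not particular to basal cells. Trp63, a transcription factor of basal epithelium, read 1.38 and 1.65 on the mammary tumor arrays, -0.16 in liver, -0.99 in kidney and 0.22 in testis (difference 1.82 ± 0.48 SE; adjusted p = 0.195). Trp63 had the largest positive difference of the basal list. On the other side, Mylk read 0.143 and -0.149 and Sfn -0.361 and -0.117 on the mammary tumor arrays, both below all 3 lines. Tagln read -3.649 and -3.147, against -3.39, 0.844 and -3.025 in liver, kidney and testis. For the other lines, Alb read 0.40 in liver, Pax2 -1.32 in kidney and Star 0.37 in testis, so none of these 3 markers stood well above the pool. The luminal and milk markers thus go against the label or leave it unchecked, the basal list is mixed, and the line is called mammary tumor here by its title.

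Of the lists of other cell types, leukocyte genes lay under the pool, and the other list medians lay near it: 0.12 and -0.13 on the mammary tumor arrays for 23 endothelial probes, 0.24 and -0.35 for 38 muscle probes, and 0.07 and 0.04 for 54 hepatocyte probes. Ptprc, the pan-leukocyte phosphatase, read -3.86 and -3.39 and Coro1a -3.95 and -2.80 on the mammary tumor arrays. The median of 34 leukocyte probes was -1.66 and -1.64 on the mammary tumor arrays, -1.33 in liver, -2.95 in kidney and -1.52 in testis; 8 (23.5%) lay above all 3 lines and 2 (5.88%) below, beside 13.2% and 13.9% of all features. Its median difference was 0.22, which turned to -0.12 after quantile normalization and to -0.64 with scaled arrays, where 2 probes lay above and 9 below. The fibroblast marker Thy1 read -3.72 and -2.28 on the mammary tumor arrays and -1.68, -4.23 and -3.23 in liver, kidney and testis, a difference of 0.04, and Dcn was likewise under the pool in liver and kidney. The collagen Col1a1 read -2.983 and -2.285, against -2.295, -0.157 and 1.718 (difference -2.39, not called). Col3a1 read -3.172 and -1.443, against -3.82, -2.33 and 1.698 (difference -0.82, not called). Pdgfra read -0.85 and 0.17 on the probe with the larger difference (1.08, not called). The endothelial markers were mixed: on the mammary tumor arrays Cdh5 read 0.90 and 0.40, Tie1 0.844 and -0.025, and Kdr 0.313 and -0.129. Pecam1 read -0.926 and -1.539, and Tek -1.123 and -1.315, below all 3 lines. On both mammary tumor arrays 2 endothelial probes (8.7%) lay above all 3 lines and 5 (21.7%) below, beside 13.2% and 13.9% of all features. A part of other cell types in the matrix results was not tested.

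More matrix probes lay above all 3 lines than below them (20 against 5), and more cell cycle probes below than above (20 against 2). Of 77 probes for 69 extracellular matrix and fibroblast genes, 2 were called higher, both for Col6a3, and 2 lower, Fbln5 and Loxl2. Of all features tested, 0.202% were called higher and 0.216% lower. On both mammary tumor arrays 20 probes (26%) lay above all 3 lines and 5 (6.49%) below, beside 13.2% and 13.9% of all features tested. Col4a3 is among the 20 with 1 mammary tumor array only, since the other had no value. The median difference was 0.57, beside 0.03 over all features. By line it was 1.09 from liver, 0.73 from kidney and 0.28 from testis. The list median was -0.14 on mammary tumor array 1 and 0.40 on array 2. Of the 77 probes, 22 lay above all 3 lines and 10 below without array 2, where 1948 and 1739 of 7417 features did. Without array 1 the counts were 33 and 5, where 1667 and 1619 of 7414 did. On array 1 alone the share above was thus near that of all features, and the share below smaller. The excess above rested mainly on array 2. Without liver, 24 lay above both remaining lines and 13 below, where 1580 and 1551 of 7423 did. In a fit of the 5 arrays alone, by line, 22 matrix probes were called higher and 8 lower, where 3.25% and 2.9% of all features were called.

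Among the 20 was Postn, periostin, at 2.10 and 1.87 on the mammary tumor arrays and -0.43, -1.03 and -1.64 in liver, kidney and testis. Thbs1, thrombospondin 1, read 1.98 and 2.73, against -1.19, -1.31 and 1.43. Lox, a collagen cross-linking enzyme, read 0.71 and 2.02, against -4.40, -1.49 and 0.01. None of these 3 passed the test. On the lower side Fstl1, follistatin-like 1, read -4.70 and -4.21, against -3.24, 0.23 and -0.63, and was not called. The matrix genes thus held members far apart in both directions.

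**Figure D4:**
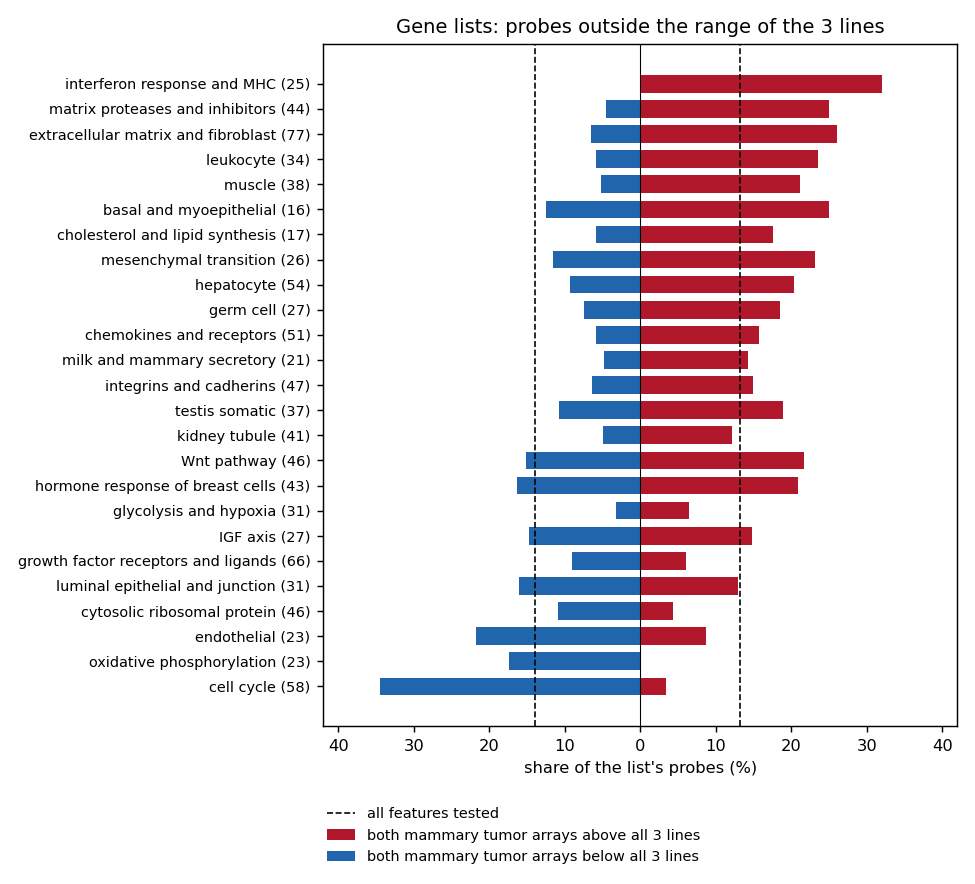
Share of each gene list's probes on which both mammary tumor arrays lay above (red, to the right) or below (blue, to the left) all 3 lines, with the number of probes in parentheses, for lists of at least 10 probes. Dashed lines mark the shares over all 7423 features, 13.2% and 13.9%. Cell cycle genes reach 34.5% below and extracellular matrix genes 26% above.

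Matrix proteases and their inhibitors had no called member in limma among 44 probes (11 at an unadjusted p under 0.05, and 5 called higher and 1 lower with the 5 arrays by line). Among all 7423 features, 941 were at an unadjusted p under 0.05, and by line 3.25% were called higher and 2.9% lower. On both mammary tumor arrays 11 protease and inhibitor probes (25%) lay above all 3 lines and 2 (4.55%) below, beside 13.2% and 13.9% of all features. Htra1, a secreted serine protease, read 1.07 and 2.24 on the mammary tumor arrays, -1.99 in liver, 0.82 in kidney and -2.84 in testis. Timp2, a metalloproteinase inhibitor, read 0.59 and 1.87, against -0.20, -1.85 and -0.30. The median difference of the list was 0.04, near that of all features.

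Of 58 cell cycle probes, 1 was called lower, Ccnd2, and 0 higher, beside 0.216% and 0.202% of all features tested. On both mammary tumor arrays 20 (34.5%) lay below all 3 lines and 2 (3.45%) above, beside 13.9% and 13.2% of all features. The median difference was -0.48, and it was -0.56 from liver, -0.56 from kidney and -0.11 from testis. Aurka, a mitotic kinase, read -0.39 and -0.56 on the mammary tumor arrays, 0.90 in liver, 1.92 in kidney and 1.5 in testis. Foxm1, a factor of mitotic genes, read 0.01 and 0.20, against 0.66, 1.77 and 2.05. Mcm4, of the replicative helicase, read -0.15 and -0.36, against 1.34, 0.82 and 0.59. Birc5, survivin, read -0.01 and 0.31, against 1.53, 1.49 and 0.51. None of these 4 was called. With the 5 arrays by line, 6 of the 58 probes were called lower and 0 higher, beside 2.9% and 3.25% of all features. The exceptions above all 3 lines were Cenpf, at 1.38 and 1.05 on the mammary tumor arrays and at most 0.70 in the 3 lines, and Mki67, at 0.16 and 0.17 and at most -0.05. With values not centred, 12 of the 58 cell cycle probes lay below all 3 lines, where 582 of 7423 features did. The median was then -0.24 beside 0.27 over all features. Without testis 32 of the 58 lay below both remaining lines, where 1875 of 7423 features did.

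Of 23 probes for oxidative phosphorylation, 0 were called in limma (4 at an unadjusted p under 0.05, and 1 called lower with the 5 arrays by line). Among all 7423 features, 941 were at an unadjusted p under 0.05, and 2.9% were called lower by line. Above all 3 lines lay 0 and below them 4 (17.4%), beside 13.2% and 13.9% of all features, so the share below was near that of all features. The median difference was -0.33, but 0.02 from testis. After quantile normalization and with scaled arrays 9 of the 23 probes lay below all 3 lines, where 1164 and 1195 of 7423 features did. With values not centred the median was -0.08, beside 0.27 over all features, and 2 of the 23 lay below, where 582 of 7423 did. Cox6a1, a subunit of cytochrome c oxidase, read -0.18 and -0.17 on the mammary tumor arrays, 0.75 in liver, 1.14 in kidney and 1.27 in testis. Atp5b, the catalytic subunit of ATP synthase, read 0.01 on both, against 0.57, 0.43 and 1.88. The median was thus below 0 against liver and kidney and just above 0 against testis.

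**Figure D5:**
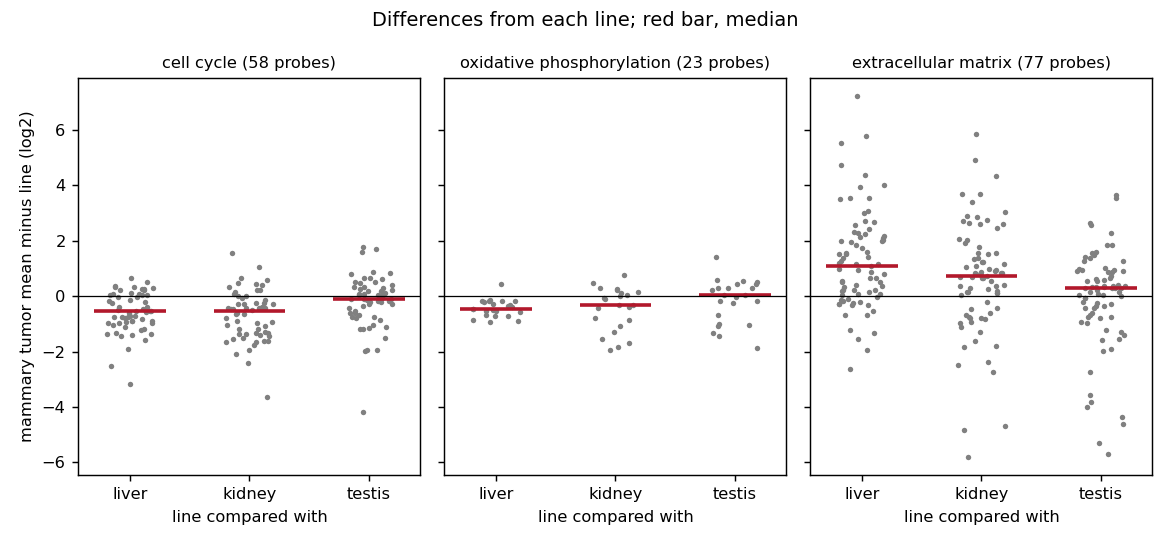
Mammary tumor mean minus the liver, kidney or testis line (log2, vertical axis) for each probe of the cell cycle, oxidative phosphorylation and extracellular matrix lists; red bars are medians. The medians from testis, -0.11, 0.02 and 0.28, lie nearer to 0 than those from liver, -0.56, -0.45 and 1.09.

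The Wnt pathway had 1 gene called in each direction among 46 probes, Sfrp2 and Wnt10a. Above all 3 lines lay 10 probes (21.7%) and below them 7 (15.2%), beside 13.2% and 13.9% of all features. Wnt4, a ligand of mammary branching, read -1.80 and -1.94 on the mammary tumor arrays, 1.14 in liver, -1.15 in kidney and 1.43 in testis, and was not called. Fzd8, a Wnt receptor, read 1.48 and 1.03, against -0.22, -0.03 and 0.23. Of 43 probes for the hormone response of breast cells, 2 were called higher, Ccn5 and Cxcl12, and 0 lower. Of all features tested, 0.202% were called higher and 0.216% lower. This list was written with the values of both genes known, so its count tells nothing about hormone response. On both mammary tumor arrays 9 of its probes (20.9%) lay above all 3 lines and 7 (16.3%) below, beside 13.2% and 13.9% of all features. Myc, in the same list, read -0.46 and -0.80 on the mammary tumor arrays and 1.16, 1.31 and 0.34 in liver, kidney and testis.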

How the data were processed

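The deposited values are log2 ratios from the authors, with 1 value for each spot of an array. Their background correction, within-array normalization and spot filter are not stated in the labels. Per the labels, Cy5 held the line and Cy3 the pool. Base and direction were judged from the values: the mean unlogged ratio over the lines had a median of 1.003 for log2 of line over pool, 1.199 for the opposite sign, 1.072 for natural logs and 1.87 for log10. This parts log2 from natural logs only weakly. The check takes the pool as an equal mix of the 11 lines, for which the mean ratio would be 1. That was assumed and not checked. If it holds, each line is part of its own reference, and in principle its log2 ratio is at most 3.46 before centring. Whether the arrays had been centred is unknown.

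The value table held 7680 probes with 423 empty cells. The 80 Gapdh spots were averaged, and of 7601 features, tests covered the 7423 that no line lacked (6408 named genes). The platform annotation gave 6835 probes 1 symbol, 4 several and 841 none; 6809 symbols were updated through RefSeq (GRCm38.p6).

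Each array was centred on its median. limma 3.58.1 (R 4.3.3; lmFit, contrasts.fit, eBayes, two-sided) was fitted with 1 coefficient per line over all 14 arrays. The fit had 3 residual degrees of freedom, from the 3 duplicated lines (prior 3.78), and lone arrays were assumed to vary like them; the median residual SD was 0.427. The script was tested on simulated data. Signal over background is not in the values used, and the number of arrays limits the precision.

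Genes named were Cxcl12, Ccn5 and Igfbp4, up to 12 called genes in each direction lying beyond all 3 lines, up to 4 in each direction per single line, up to 4 called per list, and fixed markers; list members not called were picked as examples after their values were seen, as were Gadd45a, Mthfd2, Man1a and Sspn in the first comparison. For several probes, the one with the largest difference speaks for the gene. The comparison, its members and the lists were chosen with earlier results of these data known. Lists have no test. Alternatives covered centring, quantile normalization, scaling, the arrays fitted, the image run, missing values, probe averaging and leaving out, in turn, each of the 5 arrays compared and of the fibroblast and myeloma arrays; the 5 other lone lines were not left out. Figures were drawn with matplotlib 3.10.9.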

Additional observations from a re-analysis of the deposited data

How the results depend on the processing

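Counts of calls against the mean of the 3 lines moved with nearly every choice. They were 79 higher and 87 lower after quantile normalization, 50 and 65 with scaled arrays, 241 and 215 with the 5 arrays alone fitted by line, 7 and 1 with the 5 arrays as 2 groups, 0 and 0 with the image run as a random block, and 8 and 10 with probes of a gene averaged. With values not centred they were 17 and 11, and the median of all differences shifted to 0.273, with 1744 features above and 582 below all 3 lines. Leaving out 1 array gave 0 to 47 higher and 0 to 35 lower. Of the 27 called genes, 27 remained called after quantile normalization and in the 5 arrays by line, 26 with scaled arrays, 22 without centring, 15 with probes averaged, 18 without liver, 14 without testis, 5 with 2 groups, and 0 with the run block or without kidney, a mammary tumor array or a myeloma array; none changed sign. The cause of these losses was not tested.

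Against liver, kidney and testis the main counts of 9, 36 and 9 became 70, 84 and 114 after quantile normalization, 245, 759 and 269 with the 5 arrays by line, and 3, 1 and 0 with the run block. Scaling gave 0 against kidney and 19 against testis, and uncentred values 57 against kidney. Leaving out 1 array gave 0 to 18, 0 to 88 and 0 to 32. Igfbp4 passed against the mean of the 3 lines after quantile normalization (limma adjusted p = 0.0286) with the 5 arrays by line (0.00534) and without fibroblast array 1 (0.0425) or 2 (0.0427); over all its alternatives the adjusted p ran from 0.00534 to 0.726. The median of the luminal list, -0.177, reversed to 0.071 without centring. No paired analysis was possible because the liver, kidney and testis lines have 1 array each.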

Other observations

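Of 25 probes for interferon response and antigen presentation, 0 were called against the mean of the 3 lines in limma (2 at an unadjusted p under 0.05, and 0 called with the 5 arrays by line), while on both mammary tumor arrays 8 (32.0%) lay above all 3 lines and 0 below, beside 13.2% and 13.9% of all features. Among all 7423 features, 941 were at an unadjusted p under 0.05, and by line 3.25% were called higher and 2.9% lower. Isg15, a ubiquitin-like interferon product, read -1.17 and -1.31 on the mammary tumor arrays and -1.81, -2.20 and -1.56 in liver, kidney and testis. Psmb8, an immunoproteasome subunit, lay above all 3 lines on 2 probes. With scaled arrays 3 probes lay above and 3 below, and the median difference went from 0.28 to -0.08.

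Among the tropomyosins, Tpm2 read 1.69 and 2.10 on the mammary tumor arrays, -1.35 in liver, 0.15 in kidney and -0.92 in testis, and Tpm1 1.46 and 1.54 against -0.11, 0.56 and 1.22. The mammary tumor arrays differed from each other in Myog, a muscle factor, at -0.18 and -3.19, and in Laptm5, a leukocyte gene, at -1.80 and -3.67. Xist, the RNA of the inactive X chromosome, read -0.41 and 0.23 on the mammary tumor arrays, 0.46 in liver, -4.98 in kidney and -4.38 in testis; it was picked after its values were seen.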
